A study of Mus musculus with 8 samples.

Results

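ATP-binding cassette (ABC) transporters were examined in mouse colon fibroblasts with and without fractionated irradiation. The members were the protein-coding genes of GENCODE M21 whose symbol is Abc, a letter from a to g, a number and at most a further letter. This pattern matched 50 genes, of 21903 protein-coding genes and 55573 genes listed for each library. By its title, the study asked how inflammatory fibroblasts contribute to therapy resistance in rectal cancer. Polyadenylated RNA was sequenced from colon fibroblasts of the C57BL6/J strain, kept as flat cultures on plastic in Advanced DMEM F12 with 10% FBS. All cells in both groups had received APTKA conditioned medium, a name that the labels leave unexpanded. The non-irradiated group held 4 libraries and the irradiated group 4 libraries of cells given 3 fractions of 2 Gy, all collected 72 hours after the first dose. The series calls the samples of each group independent, but no label ties them to different animals or cultures. The p-values therefore speak only for the spread among these libraries, and that spread may be technical.

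The symbol pattern uses no measured value. The family was nevertheless put forward after the irradiation contrast in these libraries had been seen, in which Abca8a stood out, and the genes Abca5 to Abca9 were singled out with it. Their differences between the groups are therefore given as levels and fold changes, without p-values. Where genes of this run are counted, named or marked in a figure as called, the call rests on the contrast that brought them in. Such calls, in the main fit or in the alternative fits, are a description and no separate test of these genes. The counts for the family are set beside the same counts over all genes, and nothing is read from them.

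ABC proteins couple the binding and hydrolysis of ATP to the movement of lipids, peptides, ions, drugs and conjugates across membranes. Subfamily A handles mainly lipids, subfamilies B and C include mitochondrial, lysosomal and drug-exporting pumps, subfamily D serves peroxisomes and lysosomes, and subfamily G carries sterols and drugs. Members of subfamilies E and F lack membrane-spanning segments and act on ribosomes and translation. In fibroblasts, members such as Abca1 pass cholesterol to extracellular carriers, and Abcc1 exports glutathione conjugates.

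Total counts ran from 28731227 to 37157216 per library. Fibroblast markers dominated: the 11 listed markers summed to between 14379 and 18585 CPM, which are counts per 1000000 counts of the library, its size scaled by trimmed means (TMM). Col3a1 and Col1a2 were highest, at 5834 and 4946 CPM on average, while Lum, Fap and S100a4 averaged 5.63, 3.49 and 3.15 CPM. Cd14 and Cd68, on the leukocyte list, averaged 9.36 and 3.59 CPM. Of the 11 fibroblast markers, all tested, 0 were called higher and 2 lower, where 2.59% and 4.15% of all tested genes were. The 2 were Col1a2, a chain of type I collagen, and Vim (vimentin). They fell from 5353 ± 339 to 4539 ± 195 CPM and from 1117 ± 26.0 to 1014 ± 43.1 CPM (SD, n = 4). The call of Vim was lost without any single library except irradiated III, with adjusted p up to 0.279 over all settings. Epithelial markers summed to at most 2.16 CPM, endothelial markers to at most 5.40 CPM and leukocyte markers to at most 15.3 CPM, where Ptprc and Epcam each averaged under 0.104 CPM, the value of 3 counts in the smallest library. Of the 7 pericyte and smooth muscle markers, which summed to between 555 and 617 CPM, 6 were tested and Notch3 alone was called (higher, 80.1 ± 6.31 and 96.7 ± 5.04 CPM). Notch3 was not called without irradiated I and II (adjusted p = 0.0835). Pdgfrb, the highest of these markers, went the other way and was not called (467 ± 20.4 and 430 ± 15.2 CPM, log2 fold change of -0.12, adjusted p = 0.102), and Rgs5 averaged 0.0349 CPM. In bulk RNA, fewer cells of a type and less RNA per cell cannot be told apart. Both mitochondrial rRNAs together took 15129 and 15263 per 1000000 counts in irradiated I and II and 4178 to 5934 in the other 6 libraries, and counts of irradiated I and II, and of III and IV, were closer to each other than those of the other irradiated pairs (a chi-square, divided by its degrees of freedom, of 5.46 and 5.12 against 16 to 27.6). On the first principal component, non-irradiated I and III lay at -23.3 and -19.9, apart from the other 6 libraries at 0.745 to 16.1. The part of these library differences in the results below was not tested beyond the fits without irradiated I and II and without non-irradiated I and III.

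Most measured ABC genes were not called between irradiated and non-irradiated fibroblasts, and the 3 log2 fold changes of 0.5 or more were all in subfamily A. Of the 50 members, 34 had enough counts to be tested. Among these, 5 were called higher (Abca1, Abca6, Abca8a, Abca8b and Abcb9) and 1 lower (Abcc1) at an adjusted p under 0.05 over all genes, and 28 were not called. Over all 15259 genes tested, 2.59% were called higher and 4.15% lower, 6.74% in either direction. The tested members had a median log2 fold change of 0.04, with 19 above 0 and 15 below, against a median of 0.00 for all tested genes. In 7 members the irradiated libraries all lay above the non-irradiated ones, and in 3 all lay below, where 6.13% and 8.07% of all tested genes did so. The summed CPM of the family was 2573 ± 42.7 in non-irradiated and 2535 ± 15.2 in irradiated libraries (SD, n = 4). The count of members called higher was 3 (Abca1, Abca8a and Abca8b) and that of members called lower 0 without irradiated I and II, and the same 3 and 0 were found without non-irradiated I and III. Both of these settings were added once the data had been seen.

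**Figure D1:**
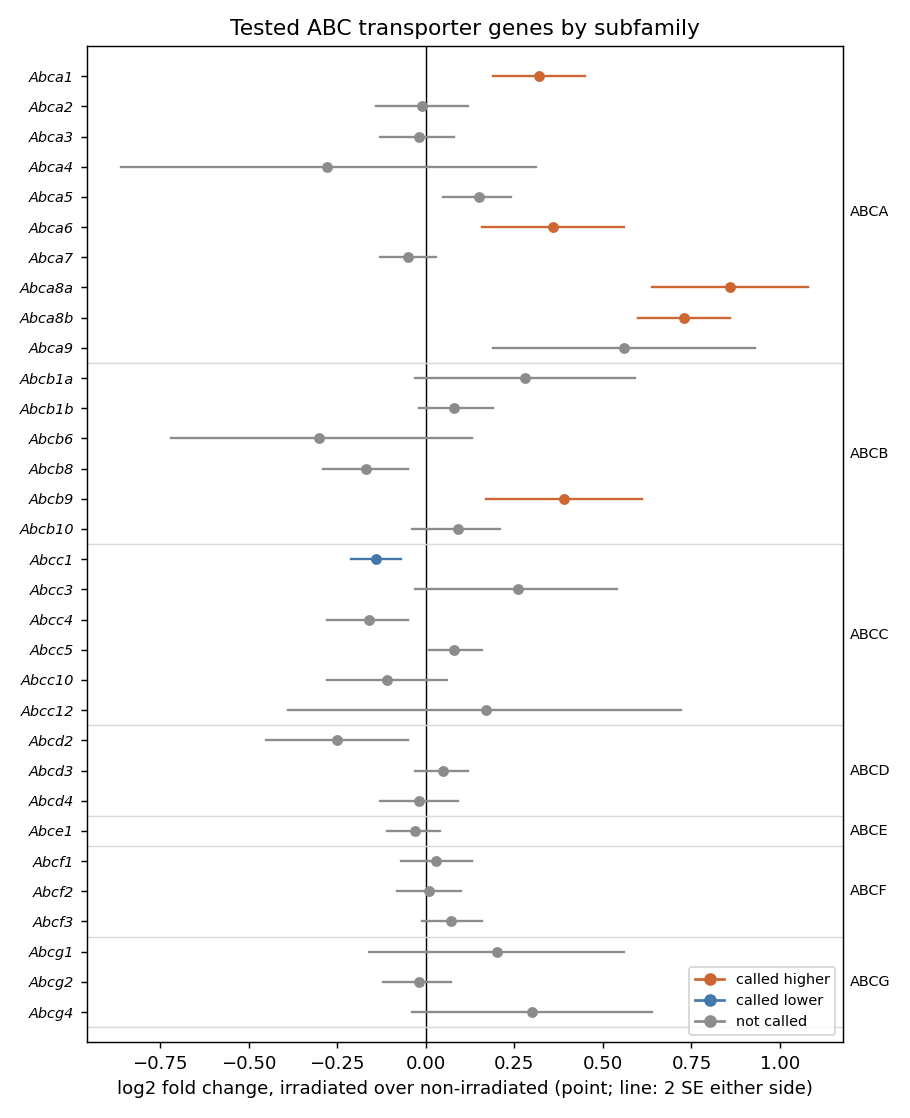
Log2 fold change of irradiated over non-irradiated fibroblasts (x axis) for 32 of the 34 tested ABC genes (y axis), grouped by subfamily; points are the fitted values, lines reach 2 standard errors either side, and colour shows the call. Abca8a (0.86), Abca8b (0.73) and Abca9 (0.56) lie farthest to the right, and the members shown of subfamilies D, E and F lie between -0.25 and 0.07.

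Abca8b, Abca8a, Abca9, Abca6 and Abca5 form a run on chromosome 11 from 109932190 to 110337716 (GRCm38), 406 kb long, all on the minus strand and with gaps of 4.77 to 29.8 kb between neighbours. The human gene ABCA8, of which Abca8a and Abca8b are the mouse counterparts, encodes a lipid transporter linked to cholesterol efflux, and Abca5 encodes a transporter of lysosomal membranes. RefSeq promoter windows (GRCm38.p6) of 300 bases, from 250 before to 50 after the start site, were at hand for Abca8b, Abca8a, Abca9 and Abca5. They are shown because these neighbours differ in their start regions, together with that of Abca1, a called member elsewhere in the genome. Capitals mark the E-box CACGTG, a palindrome bound by basic helix-loop-helix factors, and the windows read 5′ to 3′ on the gene's own strand.
Abca8b, chr11:109995796-109996095, minus: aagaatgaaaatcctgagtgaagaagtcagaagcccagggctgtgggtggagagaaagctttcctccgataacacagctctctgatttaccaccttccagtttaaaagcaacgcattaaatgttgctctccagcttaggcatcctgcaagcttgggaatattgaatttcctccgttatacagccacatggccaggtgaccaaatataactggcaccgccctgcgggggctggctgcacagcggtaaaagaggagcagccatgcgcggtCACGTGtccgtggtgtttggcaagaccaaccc
Abca8a, chr11:110095888-110096187, minus: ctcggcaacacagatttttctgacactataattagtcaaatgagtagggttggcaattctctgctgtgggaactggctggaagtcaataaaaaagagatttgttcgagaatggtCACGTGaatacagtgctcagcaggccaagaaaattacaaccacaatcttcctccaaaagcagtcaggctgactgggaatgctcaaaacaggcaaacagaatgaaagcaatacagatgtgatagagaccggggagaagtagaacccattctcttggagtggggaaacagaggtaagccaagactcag
Abca9, chr11:110168104-110168403, minus: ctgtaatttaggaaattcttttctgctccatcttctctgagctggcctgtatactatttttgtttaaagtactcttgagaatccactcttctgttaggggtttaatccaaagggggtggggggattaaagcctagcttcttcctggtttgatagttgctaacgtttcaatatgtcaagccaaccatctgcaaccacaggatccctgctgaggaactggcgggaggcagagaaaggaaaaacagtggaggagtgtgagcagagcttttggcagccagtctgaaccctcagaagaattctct
Abca5, chr11:110337667-110337966, minus: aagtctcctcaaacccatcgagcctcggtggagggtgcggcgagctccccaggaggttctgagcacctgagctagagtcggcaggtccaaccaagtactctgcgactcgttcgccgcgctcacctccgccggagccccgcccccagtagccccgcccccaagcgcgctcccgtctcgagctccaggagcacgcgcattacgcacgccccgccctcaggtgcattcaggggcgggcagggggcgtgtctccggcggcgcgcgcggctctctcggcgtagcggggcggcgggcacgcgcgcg
Abca1, chr4:53159846-53160145, minus: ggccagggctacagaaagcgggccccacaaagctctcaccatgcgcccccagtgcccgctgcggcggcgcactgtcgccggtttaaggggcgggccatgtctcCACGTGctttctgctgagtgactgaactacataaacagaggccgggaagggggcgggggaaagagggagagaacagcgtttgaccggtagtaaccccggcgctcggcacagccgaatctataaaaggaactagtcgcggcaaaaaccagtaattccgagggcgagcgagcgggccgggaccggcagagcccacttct

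The window of Abca5 held 40 CpG dinucleotides at 72.3% GC, that of Abca1 26 at 62.7% and that of Abca8b 10 at 51.3%. Those of Abca8a and Abca9 held 4 at 44.3% and 2 at 45.3%, where the median over all 32851 windows was 7 CpG and 52.7% GC. The E-box was in the windows of Abca8b, Abca8a and Abca1 and in 7.15% of all windows of that length. It was also in windows of Abca15, which was not tested, and of Abcc4 and Abcf1, which were not called. In all, 6 of the 38 members with a window held it, in 6 of the 45 member windows. No member window held the exact direct repeat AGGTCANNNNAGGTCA on either strand, a strict form of the DR4 element of liver X receptors (0.0152% of all windows). None held a full p53 site (0.0731%). With 5 and 24 matching windows among all 32851, absence from the 45 member windows carries no information. DR4 elements that differ from these letters were not searched, so their presence in the window of Abca1 or other members was not tested. The core of the antioxidant response element, TGACNNNGC on either strand, was in windows of Abca8b, Abcb1a, Abcc2, Abcc4 and Abcc10. These were 7 of the 45 member windows, where 12.4% of all windows held it. In Abca8b it overlapped the E-box. For Abcb1a, the nearest window belongs to a start site 92986 bases from the GENCODE M21 gene start. These matches describe the letters only.

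Abca8b was higher in irradiated fibroblasts. It measured 12.0, 14.7, 12.9 and 12.9 CPM in non-irradiated I to IV and 22, 21.8, 20.7 and 22.6 CPM in irradiated I to IV. The groups were well apart, 13.1 ± 1.15 against 21.8 ± 0.777 CPM (SD, n = 4), a log2 fold change of 0.73 (SE 0.07). Abca8a measured 3.77, 4.77, 3.95 and 3.62 CPM in the non-irradiated and 6.50, 7.69, 6.80 and 8.40 CPM in the irradiated libraries. Its groups did not overlap either, with means of 4.03 ± 0.512 and 7.35 ± 0.866 CPM, 1.82-fold (log2 fold change 0.86, SE 0.11). Without strand or multi-mapping information, reads from near copies could be shared. Of the 50-base stretches of the longest Abca8a transcript, 1.89% occur unchanged in other genes, chiefly Abca8b, and 2.46% of those of Abca8b do. Stretches that match with differences were not counted, and sharing of reads was not tested.

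Abca6 stood at 4.39, 5.66, 4.44 and 5.07 CPM in the non-irradiated and 6.31, 5.66, 6.39 and 6.76 CPM in the irradiated libraries. Library II of each group was at the same value to 3 digits, and the means were 4.89 ± 0.598 and 6.28 ± 0.455 CPM (log2 fold change 0.36, SE 0.10). Without non-irradiated I and III, the libraries that stood apart and the lowest here, the log2 fold change of Abca6 was 0.23. Its call in the main fit was lost in 10 of the 17 alternative fits. Abca9 measured 1.46, 2.89, 1.54 and 1.86 CPM in the non-irradiated and 2.60, 3.06, 3.03 and 2.70 CPM in the irradiated libraries. Non-irradiated II lay within the irradiated range, and the log2 fold change of Abca9 was 0.56 (SE 0.19), with means of 1.94 ± 0.658 and 2.85 ± 0.230 CPM. Leaving out non-irradiated II moved it to 0.81, and leaving out non-irradiated I and III moved it to 0.26. Abca5, the gene of the run with the highest level per kilobase of exon, measured 92.1, 97.8, 89.9 and 100 CPM in the non-irradiated and 102, 106, 102 and 111 CPM in the irradiated libraries. Its ranges were apart by a small step, with means of 95.0 ± 4.77 and 105 ± 4.34 CPM (log2 fold change 0.15, SE 0.05). For Abca5 too the value was smaller without non-irradiated I and III, at 0.09.

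All 5 genes of the run thus had fitted log2 fold changes above 0, from 0.15 to 0.86, where 50.3% of all tested genes were above 0 and 2.16% were at 0.5 or more. The run was singled out after this contrast had been seen, so its shared direction is no independent result and nothing is read from these shares. The tested genes on either side of the run were not called. Map2k6, a kinase of stress signalling 61.4 kb beyond Abca5, was at 62.1 ± 3.07 and 60.0 ± 4.72 CPM (log2 fold change of -0.05, adjusted p = 0.668). On the other side, Fam20a, 210 kb from Abca8b, was at 9.73 ± 0.261 and 9.58 ± 0.842 CPM (log2 fold change of -0.02, adjusted p = 0.901). Also on either side, 1700012B07Rik and the potassium channel gene Kcnj16 had too few counts to be tested. The difference between the run and its flanks was not tested.

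**Figure D2:**
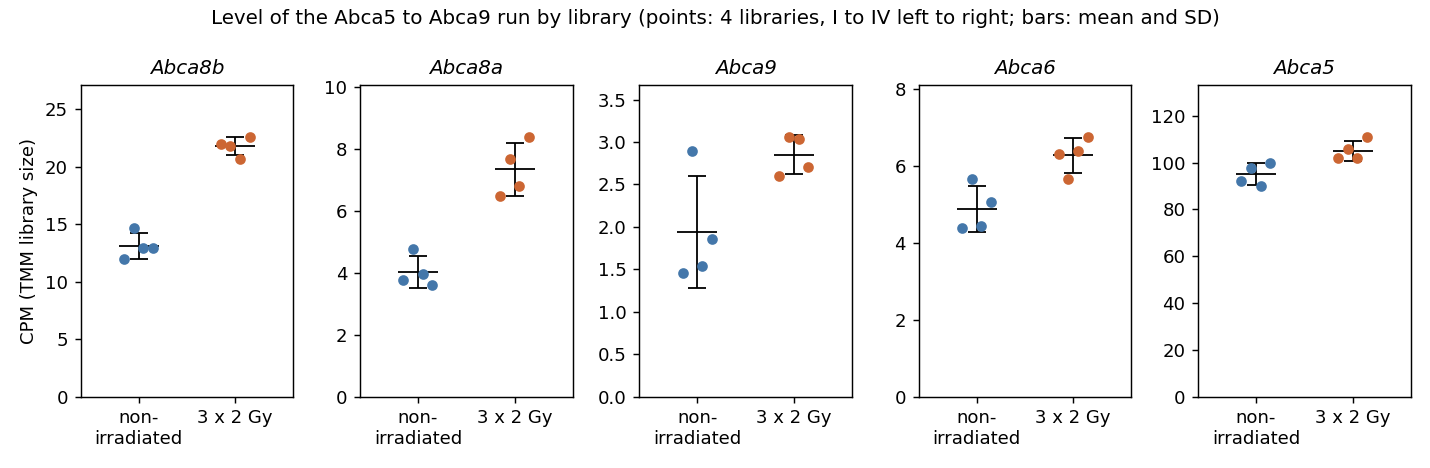
CPM (y axis, TMM library size) of the 5 genes of the chromosome 11 run in the 4 non-irradiated (blue) and 4 irradiated (orange) libraries; points are libraries I to IV from left to right, bars the mean and SD. The groups of Abca8b (12.0 to 14.7 against 20.7 to 22.6 CPM) and Abca8a are clearly apart, Abca9 overlaps through non-irradiated II, and each panel has its own axis from 0.

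Outside the run, Abca1 was the only member of subfamily A called higher. Abca1 loads cholesterol and phospholipid onto apolipoprotein A-I. It measured 49.1, 56.8, 49.5 and 44.9 CPM in the non-irradiated and 61.0, 60.8, 60.7 and 68.0 CPM in the irradiated libraries. Every irradiated library was above every non-irradiated library, with means of 50.1 ± 4.97 and 62.6 ± 3.6 CPM (SD, n = 4), 1.25-fold (log2 fold change of 0.32 with SE 0.06, adjusted p = 0.00794). Abca1 (ENSMUSG00000015243) spans 53030787 to 53159895 on chromosome 4 and was called in all 17 alternative fits. Abcg1, the partner exporter of cholesterol to lipoproteins, was near 1 CPM and was not called (1.10 ± 0.154 and 1.26 ± 0.218 CPM, a log2 fold change of 0.20 with SE 0.18, adjusted p = 0.579).

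Among genes listed as cholesterol efflux and liver X receptor partners of Abca1 and Abcg1, the called changes were falls. Over all tested genes, 2.59% were called higher and 4.15% lower, and these shares also stand beside the counts of the partner lists that follow. Of the 17 genes of the cholesterol list, 16 were tested. By edgeR, DESeq2 and limma-voom alike, 0 were called higher and 3 lower, and 1 was higher by edgeR's unadjusted p under 0.05. The median log2 fold change of the list was 0.02. Among those called lower, Scarb1, a receptor for high-density lipoprotein, fell from 97.1 ± 3.80 to 87.4 ± 1.06 CPM (SD, n = 4; log2 fold change of -0.15, adjusted p = 0.0353), and Srebf1, a regulator of lipid synthesis, from 158 ± 9.95 to 139 ± 6.21 CPM (-0.18, adjusted p = 0.0445). The call of Scarb1 was lost without any single library except non-irradiated IV, and that of Srebf1 without non-irradiated I or III or irradiated II, III or IV, with adjusted p up to 0.191 and 0.192 over all settings. The liver X receptors Nr1h2 (73.4 ± 7.03 and 71.4 ± 1.92 CPM) and Nr1h3 (1.89 ± 0.0852 and 2.23 ± 0.106 CPM, adjusted p = 0.271) were not called. Npc2, a lysosomal cholesterol carrier, and Soat1, which esterifies cholesterol, had the highest CPM of the list at 495 ± 42.1 and 506 ± 12.1 CPM and at 290 ± 1.87 and 295 ± 2.97 CPM, and were not called either.

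The remaining tested members of subfamily A were not called. Abca7, a phospholipid transporter, had the highest level per kilobase of annotated exon in the subfamily. It was at 65.7, 62.5, 61.1 and 60.4 CPM without and 62.2, 58.8, 59.8 and 61.0 CPM with irradiation. These ranges overlapped, and 2 SE either side of the log2 fold change ran from -0.13 to 0.03. Abca3, the surfactant lipid transporter of lung, was at 68.4 ± 4.06 and 67.3 ± 3.89 CPM, and Abca2, a transporter of endosomes and lysosomes, at 42.8 ± 5 and 42.4 ± 1.04 CPM (SD, n = 4). Their log2 fold changes of -0.02 and -0.01 had 2-SE ranges of -0.13 to 0.08 and -0.14 to 0.12. An RNA on the opposite strand, D330041H03Rik, overlaps 9.75% of the Abca3 exon bases, and its reads cannot be told apart from those of Abca3 if counting ignored strand. Abca4, a retinoid transporter of photoreceptors, was at 0.432 ± 0.102 and 0.353 ± 0.0963 CPM.

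In subfamily B, Abcb9 was the only member called, and it was higher. Abcb9 encodes a peptide transporter of lysosomes (TAPL), on chromosome 5 from 124061530 to 124095798. It measured 2.51, 2.64, 2.90 and 2.30 CPM in the non-irradiated and 3.46, 3.15, 3.61 and 3.36 CPM in the irradiated libraries. The groups were apart at a low level, 2.59 ± 0.249 against 3.39 ± 0.192 CPM (log2 fold change of 0.39 with SE 0.11, adjusted p = 0.0494; SD, n = 4). The call was lost with DESeq2 (adjusted p = 0.0709), limma-voom and no low-count filter, and without any single library except non-irradiated III, with adjusted p up to 0.156 over all 17 settings.

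Mitochondrial members of subfamily B were not called. Abcb8, of the inner membrane, was at 16.9, 15.2, 15 and 15.1 CPM in the non-irradiated and 13.8, 13.6, 14.2 and 13.8 CPM in the irradiated libraries. All irradiated libraries lay below the non-irradiated ones for Abcb8, but it did not pass over all genes (log2 fold change of -0.17 with SE 0.06, adjusted p = 0.122). Abcb10, which acts in haem synthesis, was at 15.6 ± 0.509 and 16.6 ± 1.14 CPM, and the porphyrin transporter Abcb6 at 1.15 ± 0.148 and 0.924 ± 0.249 CPM. Another gene on the same strand, Gm29253, overlaps 55.2% of the Abcb6 exon bases and averaged 0 CPM. How reads in that overlap were assigned is not given, so the low level of Abcb6 is uncertain. Of 16 haem and iron-sulphur genes listed with these members of subfamily B, 0 were called higher and 0 lower by edgeR and limma-voom, with log2 fold changes from -0.13 to 0.22. DESeq2 called 1 higher, and 3 were higher and 0 lower by edgeR's unadjusted p under 0.05. The iron importer Slc25a37 of mitochondria (335 ± 13.1 and 370 ± 22.9 CPM, adjusted p = 0.0795) and the haem enzyme Urod (66.5 ± 3.58 and 70.4 ± 1.21 CPM, adjusted p = 0.309) had the highest CPM of that list.

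P-glycoprotein, the multidrug exporter, is encoded in mouse by the neighbours Abcb1a and Abcb1b on chromosome 5. Abcb1b was at 29.9 ± 1.83 and 31.7 ± 0.987 CPM (SD, n = 4), a log2 fold change of 0.08 (2-SE range -0.02 to 0.19). Abcb1a was at 1.36 ± 0.170 and 1.65 ± 0.216 CPM, a log2 fold change of 0.28 (2-SE range -0.03 to 0.59). Neither was called, with adjusted p = 0.376 and 0.333. The split between them is uncertain, since 18.6% of the 50-base stretches of the longest Abcb1a transcript and 19.6% of those of Abcb1b also occur in another gene. Abcb4, the phospholipid pump of bile and the next gene on that chromosome, was left untested, with a total of 8 counts.

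Subfamily C held the member with the most counts, which was also the only member of the family called lower. Abcc1 (multidrug resistance protein 1, MRP1), which exports glutathione conjugates and leukotriene C4, gave 24.9% to 28.2% of all counts of the family per library. It measured 730, 676, 721 and 683 CPM in the non-irradiated and 643, 631, 650 and 629 CPM in the irradiated libraries. All irradiated libraries lay below, with means of 703 ± 27.0 and 638 ± 9.89 CPM (log2 fold change of -0.14 with SE 0.04, adjusted p = 0.0365; SD, n = 4). The gene (ENSMUSG00000023088) spans 14361558 to 14475737 on chromosome 16. Leaving out non-irradiated I, non-irradiated III or any irradiated library ended the call, with adjusted p up to 0.21 over all settings, and leaving out both non-irradiated I and III moved the log2 fold change to -0.09.

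Abcc4 (MRP4), an exporter of cyclic nucleotides and prostaglandins, was at 133, 109, 133 and 118 CPM without and 110, 108, 113 and 110 CPM with irradiation. Non-irradiated I and III were high and non-irradiated II lay inside the irradiated range. Abcc4 was not called (log2 fold change of -0.16 with SE 0.06, adjusted p = 0.117), but it was called without non-irradiated II (adjusted p = 0.0209) and without a low-count filter (0.0228). Without non-irradiated I and III its log2 fold change was -0.04 (adjusted p = 0.624). Abcc5 (MRP5), also an exporter of cyclic nucleotides, was at 71.8 ± 1.66 and 76.0 ± 1.83 CPM, with all irradiated libraries above, and was not called (log2 fold change of 0.08 with SE 0.04, adjusted p = 0.23). Abcc10 (MRP7) at 5.91 ± 0.538 and 5.48 ± 0.0739 CPM, Abcc3 (MRP3) at 1.87 ± 0.246 and 2.22 ± 0.277 CPM and Abcc12 at 0.457 ± 0.134 and 0.511 ± 0.122 CPM were not called (SD, n = 4).

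Glutathione and NRF2 genes are the redox partners of the Abcc exporters. Of 12 tested, 1 was higher, 1 lower and 10 not called, and the median of their log2 fold changes was -0.03. Gclc, which makes the first step of glutathione synthesis, rose from 85.9 ± 4.59 to 96.7 ± 3.88 CPM (adjusted p = 0.0452). Slc7a11, the cystine importer, fell from 55.6 ± 10.9 CPM to 41.9 ± 2.65 CPM, which is -0.41 on the log2 scale (adjusted p = 0.0334). The call of Gclc was lost without non-irradiated I, II or IV or irradiated I, III or IV, and that of Slc7a11 with DESeq2 and without non-irradiated I or any single irradiated library. Nfe2l2, the NRF2 gene itself, was at 444 ± 12.2 and 458 ± 7.30 CPM, and Txnrd1, thioredoxin reductase, at 459 ± 36.2 and 441 ± 13.9 CPM, both not called. The sulphonylurea receptor genes Abcc8 and Abcc9 had too few counts to be tested, and their channel partner Kcnj8 was at 0.854 ± 0.114 and 0.917 ± 0.152 CPM (adjusted p = 0.809).

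**Figure D3:**
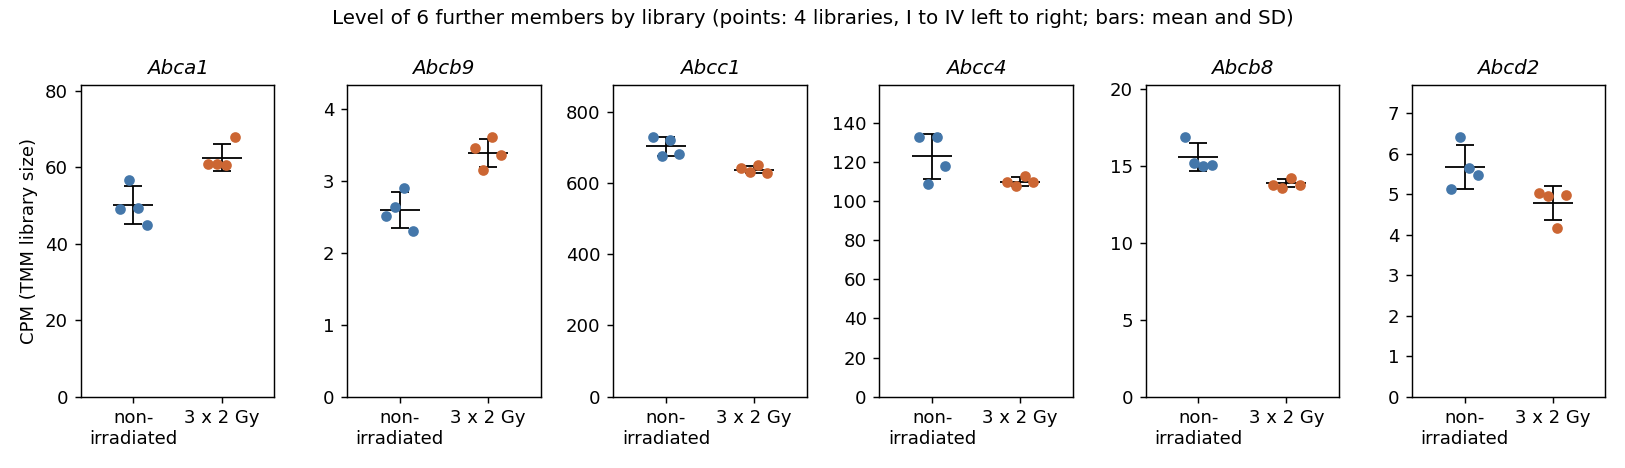
CPM (y axis, TMM library size) of 3 called members outside the run (Abca1, Abcb9, Abcc1) and of the 3 uncalled members with the largest log2 fold change in size at 5 CPM or more (Abcc4, Abcb8, Abcd2); points are libraries I to IV from left to right, bars the mean and SD. Abca1 is above in all irradiated libraries (60.7 to 68.0 against 44.9 to 56.8 CPM), and the shift of Abcc1 is small against its level.

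None of the 4 members of subfamily D was called by edgeR, DESeq2 or limma-voom. Abcd3 carries branched and long-chain acyl groups into peroxisomes and had the highest level per length of the subfamily. It was at 114, 122, 124 and 124 CPM in the non-irradiated and 125, 122, 125 and 127 CPM in the irradiated libraries. The groups overlapped (log2 fold change 0.05, 2-SE range -0.03 to 0.12, adjusted p = 0.532). Abcd2, a peroxisomal importer of very long-chain fatty acids, was at 5.13, 6.42, 5.66 and 5.48 CPM in the non-irradiated and 5.03, 4.96, 4.16 and 4.98 CPM in the irradiated libraries. All irradiated libraries lay below for Abcd2, but the test over all genes was not passed (log2 fold change of -0.25 with SE 0.10, adjusted p = 0.158). Abcd4, which releases cobalamin from lysosomes, was at 40.0 ± 1.44 and 39.4 ± 3.15 CPM (SD, n = 4). Over the family, 7 uncalled members passed an unadjusted p under 0.05 in edgeR, and Abcd2 was the single member of subfamily D among them.

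Most peroxisomal and cobalamin partners were not called either. Of 12 peroxisomal genes 1 was called higher and 0 lower by edgeR, while DESeq2 and limma-voom each called 2 higher and 0 lower; by edgeR's unadjusted p under 0.05, 4 were higher and 0 lower. Acox3, an acyl-CoA oxidase, rose from 34.9 ± 1.68 to 39.4 ± 1.72 CPM (adjusted p = 0.044). Pex5, an import receptor (188 ± 5.04 and 181 ± 5.66 CPM), and Hsd17b4, an enzyme of peroxisomal beta-oxidation (107 ± 2.28 and 109 ± 3.05 CPM), were not called. Of 6 cobalamin genes, Mtrr, which reactivates methionine synthase, rose from 52.2 ± 2.24 to 58.4 ± 1.85 CPM (adjusted p = 0.0377), and Mut, methylmalonyl-CoA mutase, fell from 27.3 ± 0.257 to 23.9 ± 1.51 CPM (adjusted p = 0.0388). Mmadhc and Mtr had the highest CPM of that list, at 72.6 ± 2.13 and 73.8 ± 0.415 CPM and at 70.5 ± 1.23 and 73.1 ± 1.49 CPM, and were not called. The calls of Acox3, Mtrr and Mut were each lost in 7 to 9 of the 17 alternative fits: Acox3 without non-irradiated III or IV or irradiated I, III or IV, Mtrr without any single library except non-irradiated III, and Mut without any single library except irradiated IV.

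The members that act on ribosomes had high levels per kilobase, and none was called by edgeR, DESeq2 or limma-voom, nor at an unadjusted p under 0.05. Abce1 encodes the factor that splits ribosomes after termination. It was at 427, 468, 461 and 476 CPM in the non-irradiated and 441, 456, 442 and 453 CPM in the irradiated libraries. The irradiated libraries lay within the non-irradiated range, and the log2 fold change was -0.03 (2-SE range -0.11 to 0.04, adjusted p = 0.682). Abcf1, which binds the initiation factor eIF2, was at 262, 235, 280 and 257 CPM and at 272, 262, 270 and 252 CPM. It too overlapped, with a log2 fold change of 0.03 (2-SE range -0.07 to 0.13). Abcf2 was at 136 ± 6.55 and 137 ± 6.02 CPM and Abcf3 at 107 ± 4.56 and 112 ± 3.08 CPM (SD, n = 4), with 2-SE ranges of -0.08 to 0.10 and -0.01 to 0.16. Of 12 partners in recycling and eIF2 signalling, Impact, a regulator of the kinase Gcn2, rose from 133 ± 6.03 to 153 ± 7.12 CPM (log2 fold change of 0.20, adjusted p = 0.0171), and the other 11 were not called. That call was lost without irradiated III or IV, with adjusted p up to 0.063. Etf1, a termination factor, was at 446 ± 14.9 and 470 ± 9.57 CPM, and Gcn1l1, an activator of Gcn2, at 308 ± 22.7 and 294 ± 8.86 CPM.

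Subfamily G was carried by Abcg2, the drug and urate exporter known as breast cancer resistance protein. It was at 61.0, 70.9, 66.1 and 69.0 CPM in the non-irradiated and 66.2, 66.4, 64.7 and 65.5 CPM in the irradiated libraries. The irradiated libraries lay within the wider non-irradiated range, and the log2 fold change was -0.02 (2-SE range -0.12 to 0.07, adjusted p = 0.834). Abcg4, a sterol transporter, was at 1.22 ± 0.148 and 1.51 ± 0.271 CPM and was not called (adjusted p = 0.337; SD, n = 4).

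Ranked by CPM per kilobase of annotated exon over all 8 libraries, the members of subfamilies E and F and Abcc1 led. Abce1 averaged 75.4 CPM per kilobase with a range of 71.2 to 79.2. Abcf1 (53.3 to 63.6) and Abcf2 (50.2 to 56.7) came next with overlapping ranges, then Abcc1 (41.7 to 48.4) and Abcf3 (28.5 to 32.7), each apart from its neighbours. Abcd3 (17.4 to 19.3) and Abcc4 (16.8 to 20.8) overlapped. Abca7, Abca5 and Abcg2 followed with averages of 9.10, 8.75 and 8.12 CPM per kilobase, with ranges that overlapped from each gene to the next. At the lower end of the run stood Abca8b with 2.35, Abca6 with 1.03, Abca8a with 0.907 and Abca9 with 0.297 CPM per kilobase, against 8.75 for Abca5. Length matters for this order: by the longest annotated transcript, Abcc1 was at 98.7 and Abcf1 at 82.7 CPM per kilobase, which turns their order. By that length, Abca5 at 12.2 and Abca3 at 10.5 were above Abca7 at 9.18. Abcd3 at 35.2 was then near Abcf3 at 35.4 and above Abcc4 at 20.4.

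**Figure D4:**
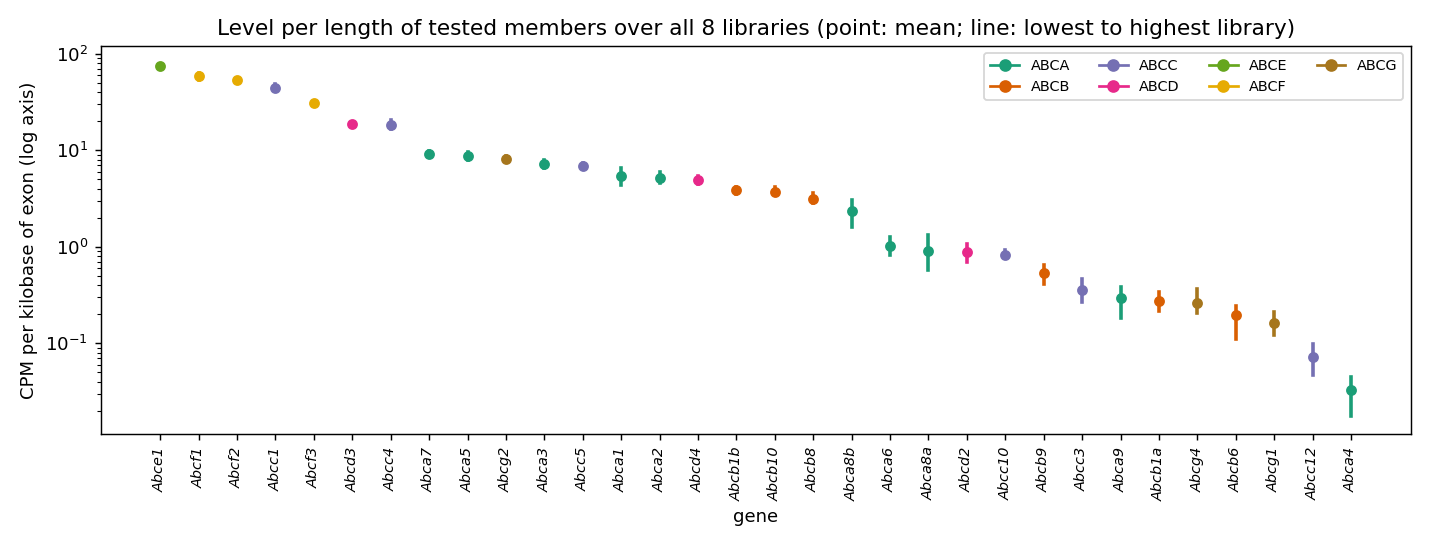
CPM per kilobase of annotated exon (y axis, log scale) for 32 of the 34 tested ABC genes (x axis), ordered by mean and coloured by subfamily; points are means over all 8 libraries and lines run from the lowest to the highest library. Abce1 at 75.4, Abcf1 and Abcf2 lead, and Abca4 is lowest at 0.0327.

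The 16 members that were not tested had between 0 and 84 counts over all 8 libraries, and at most 15 in a library. Abca16, Abcb5 and Abcc6 had no count at all; a count of 0 in a library allows a level of up to 3 counts, which is 0.0807 to 0.104 CPM by library size, and this limit covers counting error only. Abca17, which starts 0.881 kb from Abca3 on the opposite strand, held the 84 counts. The others were Abca12, Abca13, Abca14 and Abca15, Abcb4 and the bile salt exporter Abcb11, the hepatic exporter Abcc2 with Abcc8 and Abcc9, and Abcg3 with the sterol pair Abcg5 and Abcg8. Of relatives named outside the symbol pattern, Tap1 and Tap2, which together feed peptides to MHC class I, were not called at 128 ± 6.27 and 131 ± 2.74 CPM and at 46.2 ± 2.97 and 45.0 ± 1.6 CPM (adjusted p = 0.721 and 0.716; SD, n = 4), and Cftr, the chloride channel of epithelia, had no counts.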

How the data were processed

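Polyadenylated RNA of 8 libraries (4 per group) was counted per gene. The values are raw whole-number counts per Ensembl gene, deposited by the authors without normalization. The submitters' processing notes name featureCounts 1.5.0-p1, STAR 2.5.2a, bcl2fastq 2.20.0.422 and the build mm10. For annotation release, strand and multi-mapping, the settings are not given in the sources used. GENCODE M21 (GRCm38, the assembly of mm10) gave symbols for 55394 of 55573 identifiers, and the other 179 held 0.0223% of counts.

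Counts were fitted over the whole table with edgeR 4.0.16 in R 4.3.3 (TMM factors, filterByExpr with minimum count 10 and total 15, quasi-likelihood test, group alone). This kept 15259 genes and left out 40314. P-values were adjusted by Benjamini-Hochberg over all of them, with calls under 0.05. SEs were derived from the fold change and F statistic; intervals of 2 SE are approximate. The pipeline was tested on simulated data. Total counts of 28731227 to 37157216 set the precision.

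Values in every library are given for the genes Abca5 to Abca9, called members, the member highest per kilobase in each subfamily, and the 3 uncalled members with the largest change at 5 CPM or more; partner genes are named where called or among the 2 most abundant of their list. Alternatives tried were DESeq2 1.42.0, limma-voom (limma 3.58.1), factors by RLE or upper quartile, other filters, a block for replicate numbers, a 0.01 threshold and fits without each library in turn. Members and lists were chosen with earlier results of these data known. Some genes that these rules select are not reported here. Mmut and Gcn1 were matched as Mut and Gcn1l1. E-box, DR4 (exact letters only), antioxidant response and p53 motifs were searched in RefSeq promoter windows at hand for 38 members.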

Additional observations from a re-analysis of the deposited data

Results flagged for a closer look

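Of 68 groups of 4 libraries (34 tested members in each condition), 3 held a library set apart from the rest by more than Dixon's 95% critical value for the gap over the range, where chance gives about 1 in 20 groups. Abca1 was at 68.0 CPM in irradiated IV and at 60.7 to 61.0 CPM in the other irradiated libraries. Abcb8 was at 16.9 CPM in non-irradiated I and at 15 to 15.2 CPM in the other non-irradiated libraries. Abcd2 was at 4.16 CPM in irradiated III and at 4.96 to 5.03 CPM in the other irradiated libraries. The cause was not tested for any of them. Abca1 remained called without irradiated IV.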

How the results depend on the processing

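Abca1 was called in all 17 alternative fits and at a threshold of 0.01. Counts of members include the chromosome 11 run, which this contrast brought in. The counts of ABC members called higher and lower, 5 and 1, became 3 and 0 at a threshold of 0.01, without irradiated I and II, and without non-irradiated I and III. Leaving out each library in turn gave 3 to 5 higher and 0 to 2 lower, and no filter beyond 1 count gave 2 lower. Over all genes, higher and lower calls of 395 and 634 became 140 and 296 at 0.01, and leaving out 1 library gave 221 to 402 higher and 415 to 611 lower, both lowest without irradiated IV. Without a filter 648 were higher, and without irradiated I and II 295 were lower. The family's median log2 fold change of 0.04 was 0.08 without non-irradiated I and III. The near-zero log2 fold changes of Abcf1 and Abcg2 turned sign without non-irradiated II, to -0.01 and 0.01, with other single-library omissions reaching 0.07 for Abcf1 and -0.06 for Abcg2. With the replicate block, members called higher were 4 (Abca5 in, Abca6 and Abcb9 out) and lower 1, and over all genes 550 were called higher and 802 lower. Same-numbered libraries correlated at 0.0248, -0.0332, 0.275 and 0.147, and differently numbered ones at -0.226 to 0.148. These values do not settle whether the numbers pair the samples. The causes were not tested. Depth limits members under about 2 CPM, whose SEs reached 0.29.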
